A study of Homo sapiens with 4 samples.

Results

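Translation initiation factors and cytoplasmic poly(A)-binding proteins are the proteins that bring the small ribosomal subunit to an mRNA and set it on the start codon. Among the RNA sites listed for P5CS, 114 of 17625 were assigned to 23 genes of this class. The members were chosen by gene symbol alone: the EIF1 to EIF6 families without pseudogenes, PABPC1, PABPC4, PAIP1, PAIP2, ABCE1, DENR and MCTS1. The symbol rule matched 118 sites, of which 4 sites on 4 pseudogenes (EIF4A1P4, EIF4A2P3, EIF4A2P4 and EIF4BP3) were left out. The RefSeq table holds 61 protein-coding members, so 38 had no listed site.

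The sites come from LACE-seq of NCI-H1299, an established human lung cancer line, grown untreated in RPMI1640 with serum. In LACE-seq, RNA bound to an antibody's target is copied into cDNA, and the ends of that cDNA place the protein on the transcript. Antibody to P5CS was used for 2 libraries, and nonspecific IgG for the other 2; the labels do not say whether they came from separate cultures. P5CS, encoded by ALDH18A1, is the enzyme that turns glutamate into the precursor of proline, and the series title names a role in translation as an RNA-binding protein. The deposited data are 1 list of positions on hg38 that names for each site its strand, its region and a gene, without any score or level of a single library. Hence anti-P5CS was not set against IgG, the depth behind a site is unknown, and replicate error cannot be given. With no expression levels, the cell line was not checked against marker genes. The sources do not say whether sites found with IgG were removed, and a site here means a listed position, not a measured excess over IgG.

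Initiation begins when eIF2 carries the initiator tRNA to the small subunit together with eIF1, eIF1A, eIF5 and the many-subunit factor eIF3. The cap-binding complex eIF4F, made of the cap-binding protein eIF4E, the scaffold eIF4G and the helicase eIF4A, prepares the 5' end of the mRNA, and poly(A)-binding protein joins the tail to eIF4G. Several genes of this class also carry small nucleolar RNA (snoRNA) genes in their introns, which are released when the host transcript is spliced. SNORD RNAs guide ribose methylation and SNORA RNAs guide pseudouridine formation, mostly in ribosomal RNA.

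The first sequence is the precursor of miR-1248 inside EIF4A2, shown because 1 position of the list covers part of its 3' arm on both strands. The MIR1248 hairpin lies at chr3:186786672-186786777 on the plus strand (RefSeq, GRCh38.p14), and capitals mark the 21 bases inside the plus-strand site at 186786740 to 186786760. The mature miRNA lies in the other arm, and its seed is in capitals.
MIR1248 hairpin: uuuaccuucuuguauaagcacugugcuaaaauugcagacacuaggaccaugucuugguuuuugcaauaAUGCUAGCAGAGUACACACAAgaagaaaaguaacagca
hsa-miR-1248: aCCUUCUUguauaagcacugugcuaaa
The minus-strand site at the same place is wider, runs to 186786800 and shares 38 bases with the hairpin. No site assigned to EIF4A2 touches the mature sequence at 186786675 to 186786701. A pair of sites at 186786660 to 186786680, assigned to SNORA81, shares 6 bases with it.

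The 5' ends of 4 transcripts are shown next. EIF4A3 had sites that reach almost to its first base, and the other 3 show whether the transcript opens with the run of pyrimidines that many mRNAs of the translation machinery carry. In the EIF4A3 line, the first 30 bases of the transcript at chr17:80147099-80147128 on the minus strand, capitals mark the 22 bases inside the site at 80147060 to 80147120, which begins at base 9. The other lines hold 15 bases before and 15 after the RefSeq start, with the first 5 transcribed bases in capitals, and contain no listed site.
EIF4A3: acagcgagGTCGGCAGCGGCACAGCGAGGT
EIF4A2: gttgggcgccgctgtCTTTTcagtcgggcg
EIF4B: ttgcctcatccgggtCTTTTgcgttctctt
EIF4A1: aggcgggcactccgcCCTAGtttctaagga
EIF4A2 is at chr3:186783562-186783591 (plus strand), EIF4B at chr12:53006441-53006470 (plus) and EIF4A1 at chr17:7572810-7572839 (plus). A start with C and then 4 pyrimidines was found in 10 of the 50 members in the RefSeq promoter table, or 20.0%, against 729 of all 15843 protein-coding promoters, or 4.60%. It was found in 2 of the 15 members with a site that could be searched, EIF4A2 and EIF4B, and in 8 of the 35 without a site. The search thus covered 15 of the 23 members with a site but 35 of the 38 without. EIF2S2, EIF3A, EIF3CL, EIF3E, EIF3G, EIF3H, PABPC1 and PABPC4 have a site but no start sequence here. Because of this uneven gap, the counts cannot show whether the start is rarer in members with a site. The search read the transcribed strand at the RefSeq start only, and a transcript that starts some bases away would be missed.

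A site was listed for 23 of 61 members (37.7%), where 13.2% of all 20056 protein-coding genes had at least 1 assigned site. By RefSeq span instead of the assigned name the count was 22 members, where 13.4% of protein-coding genes had one. The shares over all genes include genes that may not be expressed in this line. The part of transcript abundance in the difference was not tested, since the data hold no expression levels. The median span of members with a site was 20753 bases, and that of members without a site was 24165 bases. The sites fell unevenly between complexes. All 3 eIF4A helicases had a site, with 29 sites in total, and 7 of 14 eIF3 subunit genes had 38. Of the 4 genes for poly(A)-binding proteins and their partners 2 had a site, with 19 in total. Of the other 9 eIF4 factors 4 had a site (12 sites), and of the 5 genes for eIF5, eIF5A, eIF5B and eIF6, 3 had a site (7 sites). The 11 genes for eIF2, its exchange factor eIF2B, EIF2A and EIF2D included 1 with a site, and the 4 eIF2 kinases also 1, at 2 sites each. These groups are too small to be set apart from the 13.2% of all protein-coding genes. The other groups are small too, and no difference between complexes was tested.

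A few genes held most of the sites. EIF3B had 19, PABPC1 15, and EIF4A1 and EIF4A2 13 each, so these 4 genes held 60 sites or 52.6% of the 114. EIF3A had 9, EIF4H and PABPC4 had 4 each, 6 genes had 3 (EIF1AX, EIF3E, EIF4A3, EIF4G1, EIF4G2 and EIF6), 9 had 2, and EIF3G had 1. Among all 2645 protein-coding genes with a site, 6.92% had 10 or more. More sites than in EIF3B were listed for 66 protein-coding genes, so none of the members was at the top of the list. Per length EIF4A1 and EIF4A2 stood higher, with 2.43 and 2.37 sites per kb of RefSeq span. PABPC1 had 0.782, EIF3B 0.713 and EIF4A3, the remaining helicase gene, 0.235. The spans of EIF4A1 and EIF4A2 held 15 sites each, of which 2 in each were assigned to a snoRNA. Of the 13 assigned to the gene itself, 4 in EIF4A1 and 9 in EIF4A2 lay on small RNA genes. The median was 0.187 sites per kb over the members with a site in their span and 0.0457 over other protein-coding genes with one, of which 0.899% stood above EIF4A2. Short genes reach a high value with few sites.

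**Figure D1:**
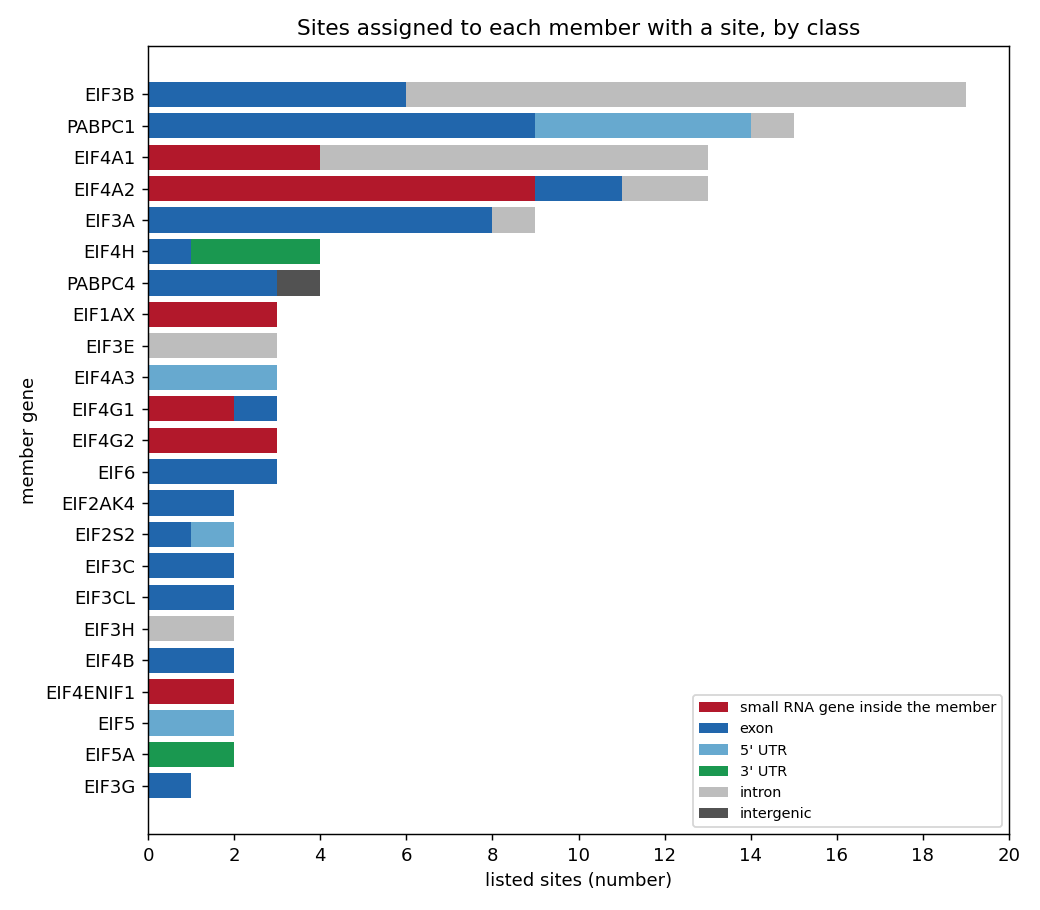
Number of listed sites (horizontal axis) assigned to each of the 23 members with a site (vertical axis), coloured by class, where red marks sites on a small RNA gene inside the member. EIF3B leads with 19 sites, 13 of them intronic, and all sites of EIF1AX, EIF4G2 and EIF4ENIF1 are red.

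By region, exons outside the untranslated regions held 66 of the 114 sites, or 57.9% (exact binomial 95% interval 48.3 to 67.1), and introns held 31, or 27.2% (19.3 to 36.3). The 5' UTR held 11 sites in 4 genes, or 9.65% (4.92 to 16.6), the 3' UTR held 5 in EIF4H and EIF5A, or 4.39% (1.44 to 9.94), and 1 was intergenic. Among 9868 sites of 2622 other protein-coding genes, 44.0% were exonic, 36.5% intronic, 8.33% in the 5' UTR and 8.08% in the 3' UTR. Off small RNA genes, 43 of 91 member sites were exonic, or 47.3% (36.7 to 58.0), and 41.4% (40.4 to 42.4) of 9234 sites of other protein-coding genes. The intervals cover counting error only and are too narrow, since sites of 1 gene are not independent, and none of these differences was tested. Within 500 bases of the listed transcript start lay 21 member sites in 9 genes, or 18.4%, against 10.2% for other protein-coding genes.

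Of the 66 exonic sites 23 lay on a small RNA gene inside the member. The list annotates all 23, and 24 of the 66 in total, to a single-exon transcript of another gene. The small RNA genes counted are RefSeq genes of at most 400 bases that are neither protein-coding nor long noncoding. Sites on small RNA genes made up 20.2% of the members' sites (13.2 to 28.7), against 6.42% in other protein-coding genes. They fell in 6 genes: EIF4A2 (9 sites), EIF4A1 (4), EIF1AX and EIF4G2 (3 each), EIF4G1 and EIF4ENIF1 (2 each). EIF1AX, EIF4G2 and EIF4ENIF1 had no other site, so 20 members had a site off small RNA genes. Among them is EIF3E, whose only sites lie outside its RefSeq span. The spans of 8 members hold 15 snoRNA genes, and 8 of those 15 (53.3%) had a listed site. Of all 1199 RefSeq snoRNA genes, expressed in this line or not, 9.51% had one. Most of the 8 lay in EIF4A1 and EIF4A2 and the rest in EIF4G1 and EIF4G2. The snoRNA genes in EIF3A, EIF5, PABPC4 and EIF2AK4 had none. A snoRNA and the intron around it come from 1 transcript, and a site on them does not tell the processed snoRNA from the unspliced host.

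EIF4A1 and EIF4A2 encode the closely related helicases of eIF4F that unwind the 5' end of the mRNA. EIF4A1 (chromosome 17, 7572825 to 7579006) had 9 intronic sites between 7573000 and 7574220, all in the first part of the gene, and 4 sites on snoRNAs. Its intronic sites start 175 bases from the listed start and are annotated by the list to intron 11 of 20 of the SENP3-EIF4A1 read-through transcript. One site on the opposite strand lay in SNORA48 (7574713 to 7574847), and 3 lay in SNORD10 (7576811 to 7576958), 2 of them on the gene strand. Another 2 sites of SNORD10 are assigned to the snoRNA itself. SNORA67, the last snoRNA of the gene, had 0 sites.

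EIF4A2 (chromosome 3, 186783577 to 186789897) had the most sites on small RNAs, 9 of 13. There were 2 each in SNORD2 and SNORA4, 3 in SNORA63, and 2 in SNORA81 where it shares bases with MIR1248, the hairpin printed above, while SNORA63B had 0. The remaining 4 were a pair in intron 1, 1 site in exon 9 of 11 at 186787500 to 186787520, and 1 at 186783920 to 186783940 that the list gives to a single-exon transcript with no RefSeq gene. In EIF4A2 a single site thus lay in a numbered exon of the mRNA. In EIF4A1 the list gives none, but its intronic calls rest on the read-through transcript and not on the exons of EIF4A1 itself. EIF4A3 (chromosome 17, 80134369 to 80147128), the eIF4A relative that anchors the exon junction complex after splicing, had 3 sites, all in the 5' UTR. They were a pair at 80147060 to 80147120, which holds the capitals of the 5' end printed above, and 1 opposite site at 80147020 to 80147040.

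**Figure D2:**
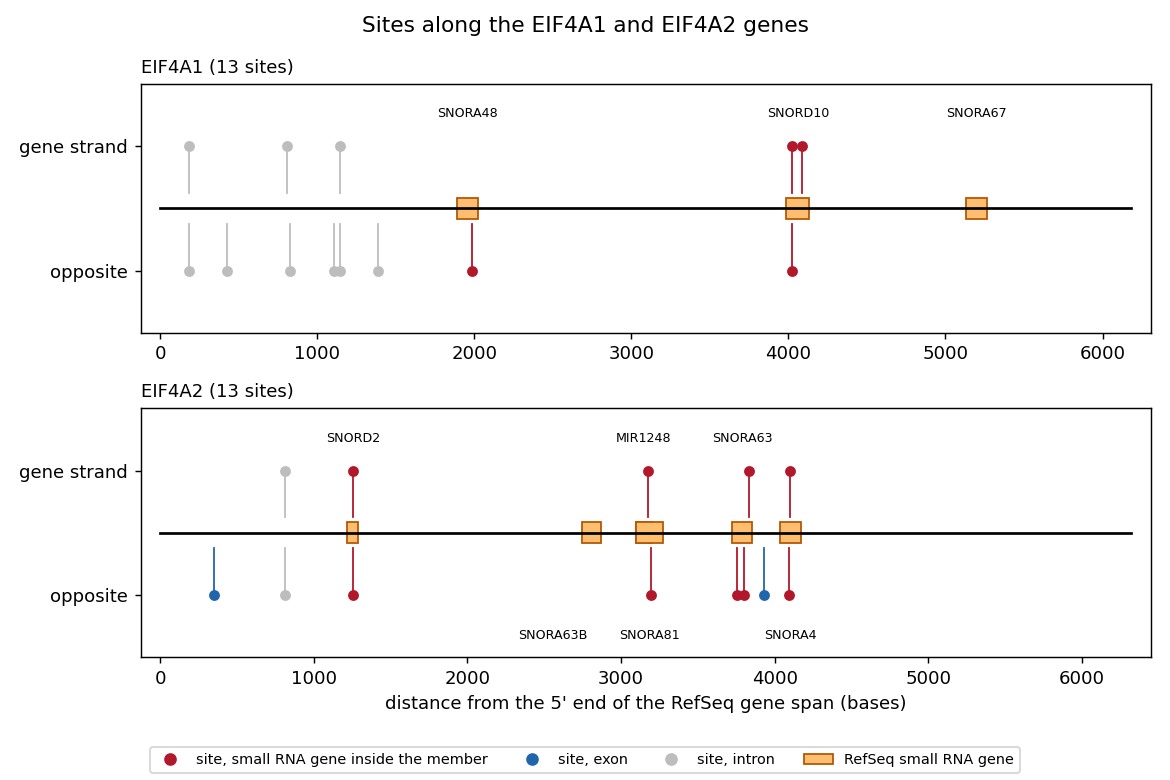
Sites along EIF4A1 and EIF4A2, with distance in bases from the 5' end of the RefSeq span on the horizontal axis and the strand of the site on the vertical axis. Boxes are RefSeq small RNA genes; red points lie on them, grey points are intronic and blue points exonic.

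Among the other eIF4 factors, sites of the scaffold genes lay mostly on snoRNAs and those of the helicase cofactors in exons and the 3' UTR. EIF4G1, the scaffold of eIF4F, had a pair on SNORD66 at chromosome 3, 184325720 to 184325760, and 1 opposite site in exon 18 of 33 at 184324880 to 184324920. EIF4G2, a relative of EIF4G1 that does not bind eIF4E, had 3 sites, all in SNORD97 between 10801480 and 10801600 on chromosome 11. EIF4B, a cofactor of the helicase, had 1 opposite site in exon 8 and 1 in exon 10 of 15, between 53028120 and 53034660 on chromosome 12. EIF4H, its close relative in function, had 3 sites in the 3' UTR between 74195580 and 74196020 on chromosome 7 and 1 in exon 4 of 5. EIF4ENIF1, a shuttling protein that binds eIF4E, had a pair at 31479400 to 31479440 on chromosome 22, on the U6 pseudogene RNU6-28P. The cap-binding protein genes EIF4E, EIF4E1B, EIF4E2 and EIF4E3, the scaffold EIF4G3 and the repressors EIF4EBP1, EIF4EBP2 and EIF4EBP3 had no site.

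The eIF3 genes carried no site on a small RNA, and their 38 sites were 19 exonic and 19 intronic. EIF3B (chromosome 7, 2354086 to 2380745), a core subunit with an RNA recognition motif, had 11 of its 19 sites within 841 bases of intron 15, from 2377580 to 2378420. Of these 11, 7 were opposite to the gene and 4 on its strand. Its other sites were 3 in exon 1, 1 in exon 2, a pair in intron 12 and a pair in exon 18 of 19. EIF3A (chromosome 10, 119033670 to 119080817), another core subunit, looked different. Its 9 sites were spread over exons 12, 14, 16, 17 and 21 of 22, with 1 in intron 6. The span of EIF3A holds the snoRNA genes SNORA19 and LOC124900296, and neither had a site.

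EIF3G, a subunit with an RNA recognition motif, had 1 opposite site in exon 7 of 11 at 10116880 to 10116900 on chromosome 19. EIF3C had 1 opposite site each in exons 14 and 15 of 21, between 28726660 and 28727060 on chromosome 16, and EIF3CL a pair in exon 2 at 28403540 to 28403560. EIF3C and EIF3CL are near-identical copies, so the copy that a read came from is uncertain. EIF3H had a pair in intron 1 at 116754120 to 116754140 on chromosome 8. The 3 sites given to EIF3E, at 108292360 to 108292420 on chromosome 8, lie outside its RefSeq span and inside that of LOC105375704, so they depend on the list's longer transcript. EIF3D, EIF3F, EIF3I, EIF3J, EIF3K, EIF3L and EIF3M had no site.

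PABPC1 (chromosome 8, 100702916 to 100722088) encodes the main cytoplasmic protein on the poly(A) tail. Of its 15 sites, 6 lay within 641 bases at the 5' end, from 100721400 to 100722040, 5 of them in the 5' UTR and 1 in exon 1. The other 9 were 8 exonic sites, in exons 6, 8, 10, 12 and 13 of 15, and 1 in intron 11. PABPC1 held 5 of the 11 sites in the 5' UTR over all members, and its widest site, 81 bases, was the widest of all members. Its paralogue PABPC4 had a pair in exon 4 and 1 opposite site in exon 6 of 10, between 39563620 and 39564500 on chromosome 1. The remaining site given to PABPC4, at 39601300 to 39601320, is intergenic, at -24510 bases from the listed start. The partners PAIP1 and PAIP2, which bind poly(A)-binding protein and raise or lower translation, had no site. PABPC1 has many processed copies in the genome, so placement of reads on it is uncertain.

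**Figure D3:**
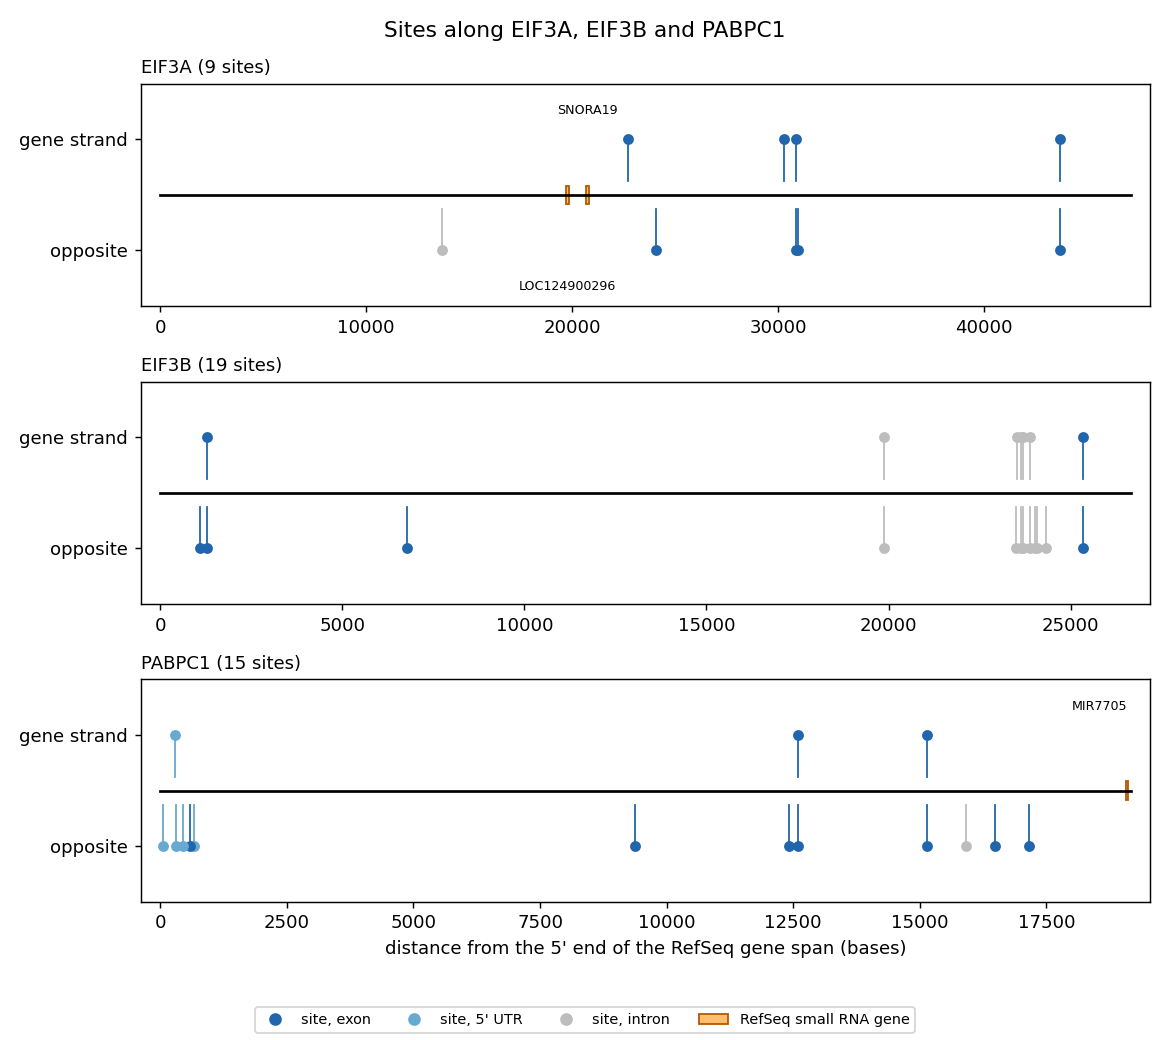
Sites along EIF3A, EIF3B and PABPC1, with distance in bases from the 5' end of the RefSeq span on the horizontal axis and the strand of the site on the vertical axis. Grey intronic points crowd in intron 15 of EIF3B (11 sites), blue exonic points spread along EIF3A, and light blue 5' UTR points stand at the start of PABPC1.

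EIF1AX, which helps the small subunit scan, had 3 sites, all on SCARNA9L (chromosome X, 20136066 to 20136413), a small RNA of the nuclear bodies that modify spliceosomal RNAs. EIF1, EIF1AD and EIF1B had none. EIF2S2, the beta subunit of eIF2, had 1 opposite site in the 5' UTR at 34112120 to 34112140 and 1 in exon 2 of 9 at 34105360 to 34105380 on chromosome 20. EIF2S1, EIF2S3 and all 5 subunits of the exchange factor eIF2B (EIF2B1 to EIF2B5) had none. EIF2AK4, the kinase GCN2 that senses uncharged tRNA, had 2 opposite sites in exon 12 of 39, between 39976540 and 39976820 on chromosome 15. The other 3 eIF2 kinases, EIF2AK1, EIF2AK2 and EIF2AK3, had none.

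Of the factors that act late, EIF5, which makes eIF2 hydrolyse GTP, had a pair in its 5' UTR at 103334540 to 103334560 on chromosome 14, where it overlaps the divergent transcript EIF5-DT. EIF5A, the hypusine-bearing factor that eases peptide bonds between prolines, had 2 opposite sites in its 3' UTR at 7312020 to 7312040 and 7312180 to 7312200 on chromosome 17. EIF6, which keeps the large ribosomal subunit from joining too early, had a pair in exon 2 and 1 opposite site in exon 4 of 7, between 35280760 and 35284400 on chromosome 20. EIF5A2, EIF5B, EIF2A, EIF2D, EIF2S3B and the recycling and reinitiation factors ABCE1, DENR and MCTS1 had no site.

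Sites on the strand opposite to the gene outnumbered those on it. Of the 114 sites 78 were opposite, or 68.4% (59.1 to 76.8), against 59.8% in other protein-coding genes, which lies inside that interval. The surplus was present in genes of either orientation, with 42 of 62 sites opposite in the 10 genes on the plus strand and 36 of 52 in the 13 genes on the minus strand. In 19 members the opposite sites were the more numerous, in 4 the numbers were equal (EIF3CL, EIF3H, EIF4ENIF1 and EIF5, each a single pair), and in 0 members were they fewer. By region 45 of 66 exonic, 20 of 31 intronic, 8 of 11 5' UTR and 4 of 5 3' UTR sites were opposite.

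Much of the gene-strand signal lay at positions listed on both strands. Pairs with identical coordinates made up 26 positions and 52 of the 114 sites, or 45.6% (36.3 to 55.2), against 45.5% in other protein-coding genes. Of the 62 unpaired sites 10 were on the gene strand, and 7 of those 10 overlapped an opposite site of another width. Counting any overlap, 48 sites stood on 1 strand only, and 45 of them, or 93.8% (82.8 to 98.7), were opposite to the gene. The same count in other protein-coding genes gave 3075 of 4185, or 73.5% (72.1 to 74.8), a difference that was not tested. The 3 sites on the gene strand alone were in EIF3A, at 119050520 to 119050540 in exon 16 and 119058080 to 119058100 in exon 12, and in SNORD10 of EIF4A1, at 7576900 to 7576920. These single-strand sites came from 19 genes, each with at least 1 opposite site. The labels do not give the strand rule of the library, so an opposite site cannot be read as antisense RNA.

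**Figure D4:**
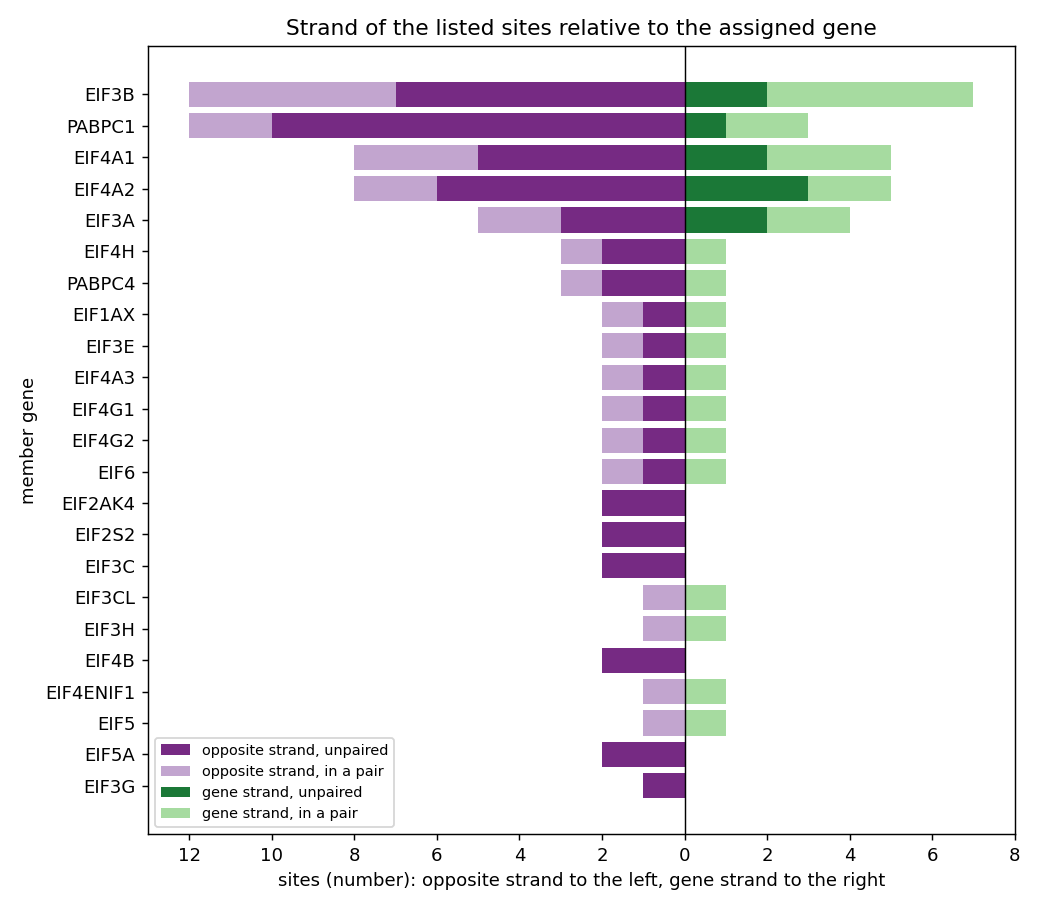
Number of sites (horizontal axis) opposite to the gene, drawn to the left, and on the gene strand, drawn to the right, for each of the 23 members; pale bars are pairs with identical coordinates on both strands. PABPC1 has 10 unpaired opposite sites and 1 unpaired on its strand, and dark green bars appear in 5 genes only.

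The strand share was lower for sites on small RNAs, but with few sites. Of the 23 sites on small RNAs 13 were opposite to the member, or 56.5% (34.5 to 76.8), and of the 91 others 65, or 71.4% (61.0 to 80.4), and the intervals overlap. In exons and UTRs of the members themselves, off small RNAs, 43 of 58 sites in 17 genes were opposite (74.1%, 61.0 to 84.7). Of 5202 such sites in other protein-coding genes 61.0% were opposite. That share stands at the lower bound of the members' interval, and the difference was not tested.

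Other genes of the translation machinery were set beside the members. The 106 sites of 39 cytosolic ribosomal protein genes were 61.3% exonic, 11.3% intronic and 36.8% on a small RNA gene (27.6 to 46.7). The 112 sites of 5 genes of the elongation factors EEF1 and EEF2 were 27.7% exonic, 47.3% intronic and 1.79% on a small RNA gene (0.217 to 6.30). The share on small RNAs was thus lowest in the elongation factors and highest in the ribosomal proteins, with the initiation factors between. The interval of the initiation factors overlaps that of the ribosomal proteins and lies above that of the elongation factors, and no difference was tested. The share of opposite sites was 64.2% in ribosomal proteins, inside the interval of the initiation factors. In elongation factors it was 58.0% (48.3 to 67.3), just below that interval, but the 2 intervals overlap.

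**Figure D5:**
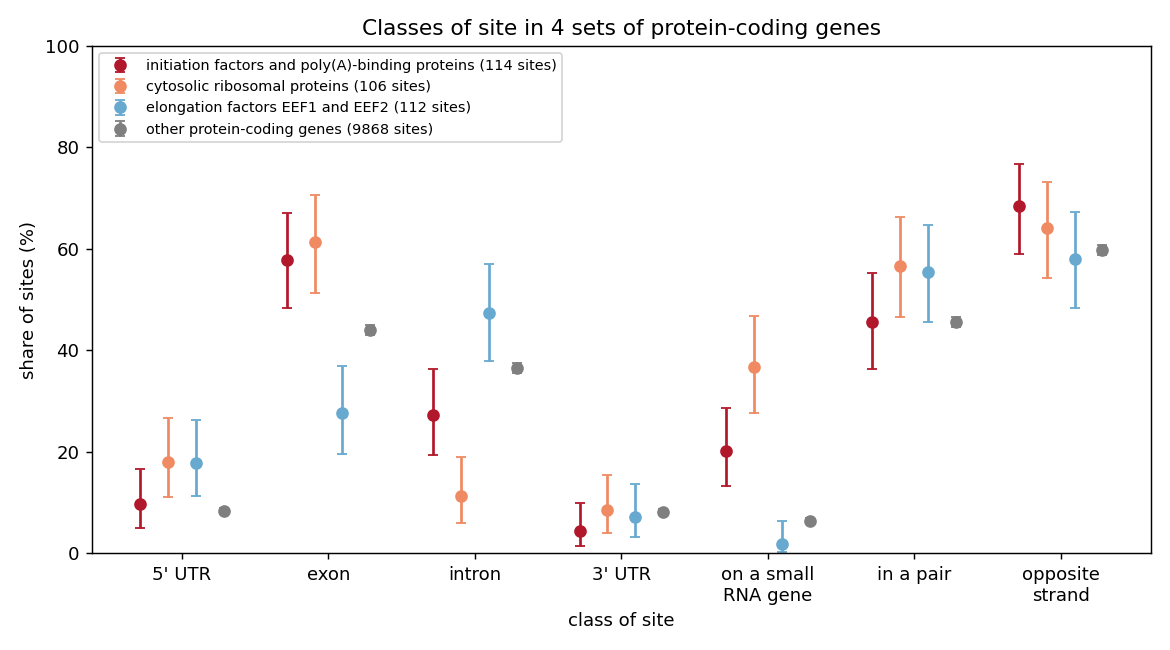
Share of sites in percent (vertical axis) in each class of site (horizontal axis) for initiation factors with poly(A)-binding proteins, cytosolic ribosomal proteins, elongation factors and other protein-coding genes; points are shares and bars exact binomial 95% intervals. The share on small RNA genes is 20.2% in the initiation factors, between 36.8% in ribosomal proteins and 1.79% in elongation factors.

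Regulators and cofactors of initiation outside the family had sites in 5 of 25 genes (20.0%), with 23 sites, 16 of them opposite, beside the 13.2% of all protein-coding genes. LARP1, which binds the pyrimidine-rich start of translation-factor mRNAs, had 14 sites between 154755340 and 154803660 on chromosome 5, 9 of them exonic, 4 intronic and 1 in the 5' UTR. LARP4, a poly(A)-associated protein, had 4 intronic sites within 50456560 to 50456780 on chromosome 12, all on a small RNA gene. PABPC3, an intronless relative of PABPC1, had 3 exonic sites on chromosome 13, where placement of reads is uncertain as for PABPC1. CTIF, a cofactor of nuclear cap-bound mRNA, had 1 site in exon 8 of 12. GIGYF2, a partner of the repressive cap-binding protein encoded by EIF4E2, had 1 site, which lay on a small RNA gene. No site was listed for the other 20, among them PDCD4, the inhibitor of eIF4A, the kinases MKNK1 and MKNK2, and the helicases DDX3X and DHX29.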

How the data were processed

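LACE-seq of NCI-H1299 cells gave 2 anti-P5CS and 2 IgG libraries, grouped by the sample titles. Per the submitters' processing notes, fastp 0.23.2, STAR 2.7.10a and hg38 were used, without roles. Not given in the sources used here are the tool that called sites, its threshold, and how IgG and replicates entered. The deposited list gives positions in bases on a 20-base grid, with 21 bases as the smallest width, and no measured level, so the planned comparison of anti-P5CS with IgG was not run. It holds 0 columns of values per library.

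Members were found by symbol and kept where RefSeq (GRCh38.p14) calls them protein-coding. Sites were overlapped with RefSeq spans by at least 1 base on either strand, a step tested on simulated data. A pair is 2 sites with identical coordinates on both strands. Sequences came from RefSeq tables. Shares have exact Clopper-Pearson 95% intervals and no test. Every member with a site is named. The members, lists and comparisons were chosen with earlier results of these data known. Alternatives changed site width, pairing, gene assignment, small RNA sites, merging within 100 bases and the genes included. Computations ran in Python 3.11.15 with scipy 1.17.1, numpy 2.4.6 and pandas 2.3.3; plots used matplotlib 3.10.9.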

Additional observations from a re-analysis of the deposited data

How the results depend on the processing

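The number of sites, the number of members with a site and the shares in exons or UTRs, opposite to the gene and in pairs were recomputed under 11 alternatives, 2 of them chosen after the data were seen (without sites on single-exon transcripts of other genes, and without EIF4A1 and EIF4A2). Of 51 values, 46 stayed within 1.5 times the count or within the interval of the share. With only sites wider than the smallest width, 22 sites in 8 members remained, 81.8% of them in exons or UTRs, against 71.9% for all 114 sites. Sites on single-exon transcripts of other genes count as exonic in these shares. Without them 64.4% of the sites lay in exons or UTRs. Without EIF3B the share in exons or UTRs was 80.0%, and with neighbouring sites merged the 114 sites became 66. The cause of the share among wider sites was not tested, while the other changes follow from the sites removed or merged. The opposite share ranged from 59.1% with only wider sites to 72.4% with only sites that overlap the member and no other gene. No paired analysis was possible because no library has values of its own in the list, and leaving out a replicate could not be run for the same reason. Depth is unknown, so a member without a site may only have been sequenced too thinly to be listed.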
